A study of Mus musculus with 2 samples.

Results

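The genes described here are Sowahb, Loxhd1 and Rab40b, which were among the genes with the largest increases in reads after knockdown of Phf6, together with the paralogs Sowaha, Sowahc and Rab40c as comparison. These 6 genes, of 47643 counted, were chosen by name; Sowahb, Loxhd1 and Rab40b were selected on their log2 ratio between the very libraries used here, so their size is a description and carries no test. Both libraries came from cortical progenitors of wild-type male E14 mouse cortex. One received non-targeting control siRNA (siCtl) and the other siRNAs against Phf6 (siPhf6), by electroporation, and both were sequenced as mRNA after 5 days in culture. The methods name 3 cultures per group, while the counts analysed here come from 1 library for each group, and whether that library holds pooled cultures is not stated. No spread between cultures can therefore be estimated, and every value compares these 2 libraries rather than the conditions.

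SOWAH proteins carry ankyrin repeats, short helical repeats that bind other proteins, and little is known of their function in mammals. Rab40b and Rab40c encode atypical Rab GTPases with a SOCS box, the motif through which a protein joins the CUL5 ubiquitin ligase and brings it substrates. Other Rab GTPases direct the traffic of membrane vesicles. Loxhd1 encodes a protein built of repeated PLAT domains, which bind membranes and proteins, and it is known for its place in the stereocilia of inner ear hair cells, where its loss causes deafness.

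The siCtl library held 12155311 reads in genes and the siPhf6 library 10561757. Phf6 itself was at 25.2% of its siCtl level, with 1420 and 310 reads (log2 ratio -1.99, 95% counting interval -2.17 to -1.81). Postmitotic neuron markers were abundant beside progenitor markers in these cells labelled as progenitors. Map2, the neuronal marker with the most reads, had 10650 and 10391 reads, and Nes, a radial glia intermediate filament, 764 and 1135. In raw reads other pairs lay closer: the radial glia marker Vim had 1855 and 1960 reads, and the neuronal marker Tubb3 2336 and 2016. Per exonic kilobase and 1000000 gene reads, Vim stood at 32.2 and 39.1 and Tubb3 at 103 and 102. Genes are called kept where siCtl or siPhf6 had 150 reads or more. The 8 neuronal markers had a median log2 ratio of 0.02, and the 5 kept of 9 radial glia markers one of 0.47. The latter ranged from -0.22 (-0.49 to 0.04) for Sox2, with 280 and 208 reads, to 0.77 for Nes. Of 4 markers of dividing cells Mki67 had 120 and 250 reads and Top2a 136 and 275, while Ccnb1 (10 and 16) and Cdk1 (30 and 36) were not kept and their intervals included 0. Of 5 meningeal fibroblast markers Col1a1 was kept, with 52 and 154 reads, while Dcn had 47 and 41. Mki67, Top2a and Col1a1 reached 150 reads in siPhf6 alone, and 31.3% of all such genes were at least 2-fold higher. The summed level of the fibroblast markers was 16.9 reads per 1000000 gene reads (RPM) in siCtl and 37.3 in siPhf6. In a bulk sample more cells of a type and more RNA per cell cannot be told apart, and the part of these differences in the values of Sowahb, Loxhd1 and Rab40b was not tested.

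Sowahb was barely detected in the siCtl library and was many-fold higher in the siPhf6 library, while the difference of its paralog Sowahc was small. Sowahb had 14 reads in siCtl and 158 in siPhf6, or 1.15 and 15.0 RPM. The siPhf6 level was 13.0-fold the siCtl level, with a 95% counting interval of 7.52 to 24.3. At the siPhf6 level 182 reads would have been counted in the siCtl library. Sowahc, the most abundant paralog, had 382 and 412 reads in the same order, with a log2 ratio of 0.31 (0.11 to 0.52), against 3.61 (2.91 to 4.60) for Sowahb. Log2 ratios were computed with 1 read added to each count. Sowaha had 5 and 8 reads, and its interval of -0.91 to 2.84 leaves its direction undetermined at this depth. The fourth family member, Sowahd, had 0 reads in both libraries. For 0 reads a floor of 3 reads was taken as the limit, which is 0.247 RPM in siCtl and 0.284 in siPhf6. All intervals and limits reflect counting error alone: the libraries carry no molecular identifiers, so reads need not be independent molecules.

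The make-up of the SOWAH family needs no scaling between libraries, but it restates the reads on which Sowahb was selected. Sowahb took 3.49% of the 401 SOWAH reads in siCtl (exact binomial interval 1.92% to 5.79%) and 27.3% of 578 in siPhf6 (23.7% to 31.2%). Sowahc took 95.3% and 71.3% of the family's reads, although its own count was no lower in siPhf6. Per exonic length, Sowahb stood at 0.295 RPM per kilobase (RPKM) in siCtl, which was above 29.6% of the genes with a read in that library. In siPhf6 it stood at 3.84 RPKM, above 60.0% of such genes, still below Sowahc at 8.70 RPKM. Sowahb remained the second member of the family in both libraries, since Sowaha was at 0.111 and 0.205 RPKM.

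**Figure D1:**
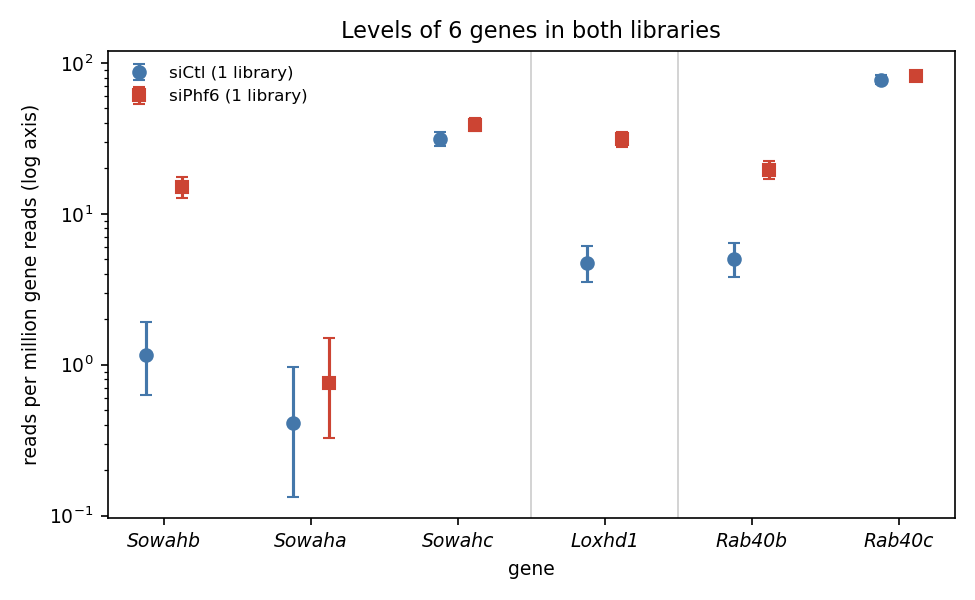
Reads per 1000000 gene reads (log axis) of Sowahb and its paralogs, of Loxhd1, and of Rab40b and its paralog, in the siCtl library (circles) and the siPhf6 library (squares); bars are exact 95% Poisson intervals of the counts. Sowahb, Loxhd1 and Rab40b lie at 1.15, 4.69 and 5.02 in siCtl and at 15.0, 31.2 and 19.6 in siPhf6, while the intervals of Sowaha and Rab40c overlap between libraries.

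Rab40b was several-fold higher in siPhf6, and Rab40c was at nearly the same level in both libraries. Rab40b had 61 reads in siCtl and 207 in siPhf6, or 5.02 and 19.6 RPM, which is 3.91-fold (2.92 to 5.29) and a log2 ratio of 1.95 (1.55 to 2.40). Rab40c had 943 and 861 reads, or 77.6 and 81.5 RPM, with a log2 ratio of 0.07 (-0.06 to 0.21). The share of Rab40b in the reads of the pair was 6.08% in siCtl (4.68% to 7.74%) and 19.4% in siPhf6 (17.1% to 21.9%). This share likewise restates the reads on which Rab40b was selected. Per length Rab40b went from 2.50 to 9.76 RPKM and Rab40c from 25.1 to 26.3, so the paralog stayed the more abundant of the pair.

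The increased genes and their paralogs lie at separate loci. Sowahb (ENSMUSG00000045314) occupies bases 93041123 to 93045022 of chromosome 5 (mm10, minus strand), as 1 exonic block of 3900 bases with no intron. Sowaha, on chromosome 11 from 53476573 to 53480274, and Sowahc, on chromosome 10 from 59221953 to 59226434, are likewise single blocks, of 3702 and 4482 bases. Rab40b (ENSMUSG00000025170) occupies bases 121356125 to 121388251 of chromosome 11 (minus strand), with 6 exonic blocks over 4 annotated transcripts. Rab40c occupies bases 25882114 to 25919727 of chromosome 17 (minus strand), with 9 blocks over 9 transcripts. Reads were counted per gene, so these transcripts are not resolved.

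The promoters of Sowahb and Rab40b and of their paralogs Sowahc and Rab40c are shown because the members of each family had such different ratios. RefSeq start sites on GRCm38.p6 were matched by symbol for these 4 of the 6 genes. Loxhd1 and Sowaha are not among them, so the promoter results do not cover these genes. Printed below are the 250 bases before each start site, on the gene's strand, at chr5:93045023-93045272 (minus) for Sowahb, chr11:121388252-121388501 (minus) for Rab40b, chr10:59221672-59221921 (plus) for Sowahc and chr17:25919715-25919964 (minus) for Rab40c. Capitals mark GC boxes (GGGCGG) and, in Rab40b and Rab40c, CCAAT boxes (CCAAT), each as written or as its reverse complement.
Sowahb: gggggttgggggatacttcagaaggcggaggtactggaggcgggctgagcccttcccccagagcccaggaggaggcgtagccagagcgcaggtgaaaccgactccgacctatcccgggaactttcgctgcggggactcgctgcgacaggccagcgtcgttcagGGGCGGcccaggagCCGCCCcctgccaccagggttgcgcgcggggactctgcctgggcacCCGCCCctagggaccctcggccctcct
Rab40b: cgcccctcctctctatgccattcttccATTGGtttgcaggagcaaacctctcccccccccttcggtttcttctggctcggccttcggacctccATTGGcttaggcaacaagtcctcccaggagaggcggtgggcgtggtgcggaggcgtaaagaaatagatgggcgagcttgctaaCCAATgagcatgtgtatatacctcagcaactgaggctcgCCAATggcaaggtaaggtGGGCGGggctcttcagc
Sowahc: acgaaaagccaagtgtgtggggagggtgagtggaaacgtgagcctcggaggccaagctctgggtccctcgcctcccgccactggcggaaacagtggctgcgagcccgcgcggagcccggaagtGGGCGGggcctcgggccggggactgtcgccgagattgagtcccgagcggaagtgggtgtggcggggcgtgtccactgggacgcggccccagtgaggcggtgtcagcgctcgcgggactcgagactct
Rab40c: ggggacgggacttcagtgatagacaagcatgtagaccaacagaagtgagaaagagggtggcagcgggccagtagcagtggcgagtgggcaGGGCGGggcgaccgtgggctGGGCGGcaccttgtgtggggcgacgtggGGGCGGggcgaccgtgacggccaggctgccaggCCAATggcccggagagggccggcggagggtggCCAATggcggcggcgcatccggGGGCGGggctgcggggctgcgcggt

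The promoter windows differed between paralogs in the number of these matches. Windows of 300 bases, from 250 before the start site to 50 after it, were searched on both strands with overlapping matches counted. Sowahb had 4 GC box matches, 3 of them printed and the last from base 19 to 24 after the start site, and Sowahc had 1. GC boxes occurred at least once in 35.7% of 32851 RefSeq promoters and 4 or more times in 5.49%. Rab40b had 4 CCAAT matches, on both strands, and Rab40c had 2; at least 1 was present in 37.4% of promoters and 4 or more in 1.06%. Rab40b had 1 GC box match and Rab40c 4. None of the 4 windows held TGACGTCA (in 1.79% of all promoters), TATAAA (13.6%) or CACACACA (4.09%), which were searched in the same way. The GC content was 72.7% for Sowahb, 60.7% for Rab40b, 69.0% for Sowahc and 75.3% for Rab40c, against a median of 52.7% over all promoters. These windows held 27, 19, 31 and 36 CG dinucleotides in the same order, against a median of 7. A match is a description of the letters and not evidence of binding.

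Loxhd1 was expressed at a low level in siCtl and was among the strongest relative increases in siPhf6. It had 57 reads in siCtl and 329 in siPhf6, or 4.69 and 31.2 RPM, which is 6.64-fold (5.00 to 8.96) and a log2 ratio of 2.71 (2.32 to 3.16). Loxhd1 (ENSMUSG00000032818) occupies bases 77281958 to 77442930 of chromosome 18 (mm10, plus strand), with 44 exonic blocks and 8899 exonic bases over 5 transcripts. Over that length its level was 0.527 RPKM in siCtl and 3.50 in siPhf6, above 37.1% and 58.8% of the genes with a read. Per length it was thus close to Sowahb in siPhf6. An antisense transcript annotated within Loxhd1 in GENCODE M21, AC102124.1, has no count of its own in either library, and with a library kit that does not mark strand its reads could not be told from those of Loxhd1. Sowahb overlaps no other annotated gene, and Rab40b holds only Mir7236, with 0 reads in both libraries. Sowaha overlaps Gm9945, with 0 reads in both libraries, and the 3 genes that overlap Rab40c had at most 19 reads each. Reads assigned to several genes were left out, so these low counts do not show how many reads an overlap took. Whether Sowaha lost reads in this way was not tested.

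Of all genes counted 10130 were kept, and among them Sowahb ranked first by log2 ratio, Loxhd1 second and Rab40b seventh. In these kept genes 107 (1.06%) were at least 2-fold higher in siPhf6 and 48 (0.474%) at least 2-fold lower, and all of Sowahb, Loxhd1 and Rab40b belong to the former by their selection. Sowahc and Rab40c were kept and were not 2-fold different, and Sowaha had too few reads to be kept. The filter bears on this ranking: with genes of 10 reads or more Sowahb ranked 4th, Loxhd1 14th and Rab40b 89th. Sowahb, Loxhd1 and Rab40b each reached 150 reads in siPhf6 alone, as did 163 genes in all, and 51 of these (31.3%) were at least 2-fold higher. Sowahb had the fewest siCtl reads of all 10130 kept genes, and Rab40b was among the 6 lowest. A kept gene with so few siCtl reads must have 150 or more in siPhf6, so all 6 were at least 2-fold higher by construction.

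Of the 7 kept genes at or above Rab40b, the others were Dgkb (98 and 552 reads), Serf1 (37 and 164), Acvr1c (150 and 591) and Dgkk (437 and 1665). Dgkb and Dgkk encode diacylglycerol kinases and Acvr1c a receptor of the TGF-beta family. The genes just below Rab40b at 1.95 were Hmcn2 at 1.92, AW551984 at 1.87 and Col1a1 at 1.75. Over the 2 libraries the pattern most like that of Loxhd1 was that of Dgkb, whose log2 ratio of 2.68 differed by 0.03, followed by that of Serf1 at 2.32. Those most like Rab40b were Hmcn2 and AW551984, which differed by 0.03 and 0.08. No kept gene came near Sowahb in log2 ratio, and the closest, Loxhd1 and Dgkb, differed by 0.90 and 0.92. These distances use the same ratio that selected Sowahb, Loxhd1 and Rab40b, so they restate the ranking. The place of Sowahb apart from the rest also depends on the filter, since it ranked 4th with genes of 10 reads or more. Genes next to each other in this order had overlapping counting intervals throughout the 10 named, also Sowahb and Loxhd1 (2.91 to 4.60 and 2.32 to 3.16).

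**Figure D2:**
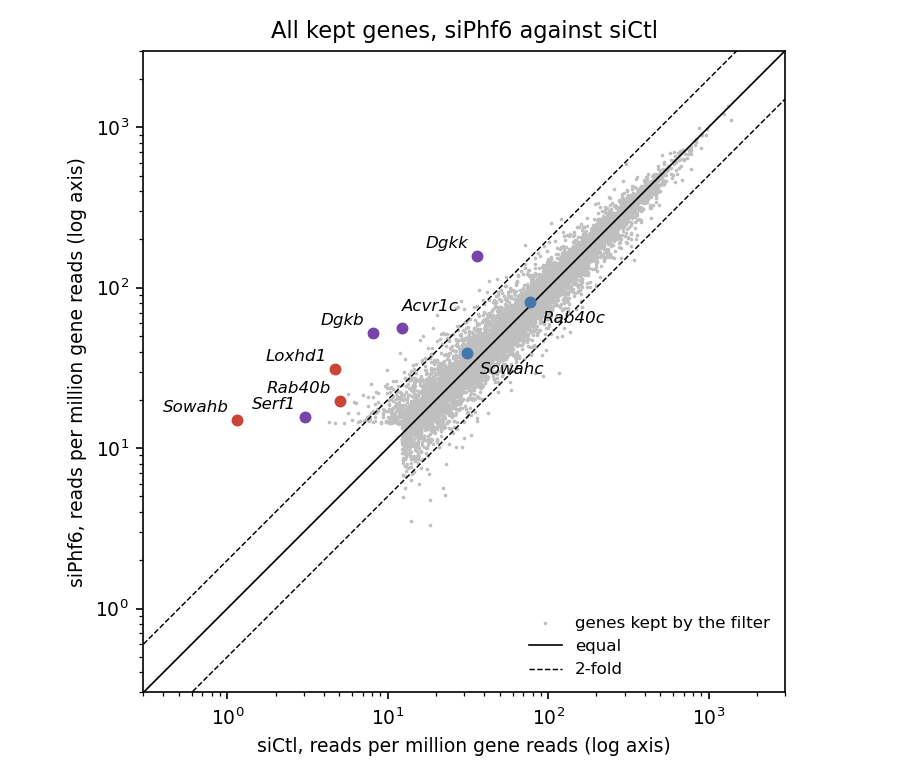
Reads per 1000000 gene reads in siPhf6 (vertical) against siCtl (horizontal), both on log axes, for the 10130 kept genes; dashed lines mark 2-fold. Sowahb, Loxhd1 and Rab40b (red) and the 4 other genes with a log2 ratio above that of Rab40b (purple) stand above the upper line, and Sowahc and Rab40c (blue) lie near the line of equality.

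The genes around Sowahb, Loxhd1 and Rab40b were examined next. Of their 25 kept neighbours 0 were 2-fold different, where 1.06% of all kept genes were 2-fold higher and 0.474% lower, so this count is near the background. Of the 10 nearest protein-coding genes on each side of Sowahb, 7 were kept, with log2 ratios from -0.18 to 0.43 and a median of -0.01. The nearest were Shroom3, an actin regulator 75.8 kb away with 162 and 190 reads (0.43, 0.12 to 0.74), and Sept11, a septin 48.4 kb away on the other side with 4358 and 3713 reads (-0.03, -0.09 to 0.04). The next beyond them were Ccni, a cyclin, with 1565 and 1678 reads (0.30, 0.20 to 0.40), and Ccdc158, which had 17 and 32 reads and was not kept (1.08, 0.22 to 2.06). Around Loxhd1, 10 of 20 annotated entries were kept (Hdhd2 is entered under a second ID that has no count), from -0.39 to 0.35 with a median of -0.02. St8sia5, a sialyltransferase 23.2 kb before its start, had 1040 and 1154 reads (0.35, 0.23 to 0.48), and Rnf165, a ubiquitin ligase 13.2 kb past its end, 1663 and 1741 (0.27, 0.17 to 0.37). The next were Pias2 at 0.01 and 8030462N17Rik at -0.22.

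Around Rab40b, which lies near the end of its chromosome, 17 neighbours were found and 8 were kept, from -0.18 to 0.35 with a median of 0.12. Wdr45b, an autophagy gene only 1.68 kb past the end of Rab40b on the same strand, had 1081 and 828 reads (-0.18, -0.31 to -0.05). Fn3krp, on the other side, had 198 and 219 reads (0.35, 0.06 to 0.63). Foxk2, a transcription factor, stood at 0.14, and Fn3k had 28 and 29 reads and was not kept. Of 31 neighbours with too few reads to be kept, 7 were at least 2-fold higher and 2 at least 2-fold lower. No share over all genes that were not kept was computed, so these counts have no background here. Among all genes with at least 1 read, 3784 were 2-fold higher and 1511 lower, partly through the 1 read added. For scale, 24785 genes had a read in siCtl and 24610 in siPhf6. Of the 7, the intervals of 4 lay above 0, which were Ccdc158, Pstpip2 (5 and 23 reads), Slc14a1 (4 and 15) and Metrnl (20 and 42). The rest were 2010109A12Rik (0 and 2 reads), Siglec15 (0 and 2) and Cxcl9 (1 and 4).

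**Figure D3:**
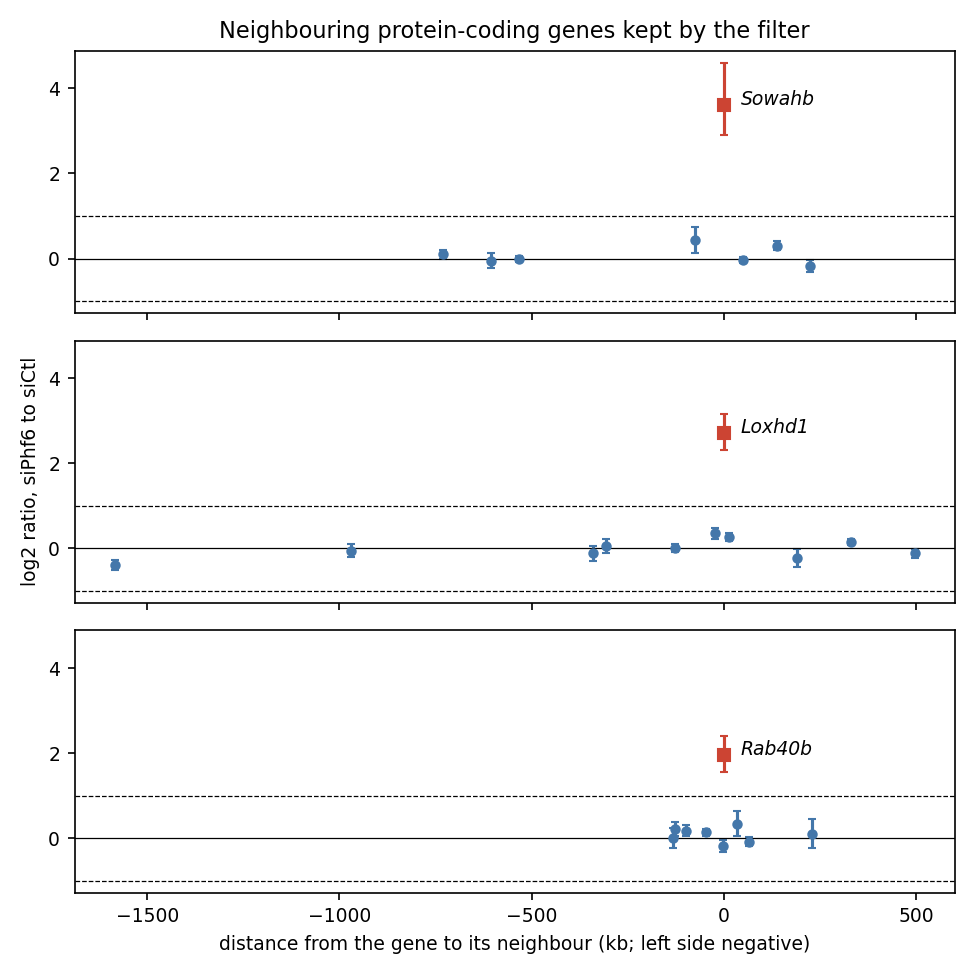
Log2 ratio of siPhf6 to siCtl (vertical) against distance in kb (horizontal) for kept protein-coding neighbours (blue circles) of Sowahb, Loxhd1 and Rab40b (red squares at 0); bars are 95% counting intervals and dashed lines mark 2-fold. All kept neighbours lie between -0.39 and 0.43, below the genes at the centre at 3.61, 2.71 and 1.95.

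Most Rab GTPases differed little between the libraries. Of 59 Rab genes 42 were kept, and Rab40b, selected for its increase, was the only one at least 2-fold higher; none was 2-fold lower. Over all kept genes 1.06% were higher and 0.474% lower, so 0 of the other 41 is near the background. Those 41 had a median log2 ratio of 0.06, within a range of -0.99 to 0.62, beside 0.01 for all kept genes. Rab31, a regulator of trafficking from the Golgi, was the lowest, with 1133 and 495 reads (-0.99, -1.15 to -0.84), and Rab9b was next to Rab40b at the upper end, with 599 and 801 reads (0.62, 0.47 to 0.78). The Rab genes with the most reads were Rab3c, of synaptic vesicles, with 7978 and 5873 reads (-0.24), and Rab6b, of Golgi transport in neurons, with 5070 and 4521 (0.04). By level per length Rab40b was 43rd of the 59 in siCtl and 35th in siPhf6, and Rab40c was 17th and 18th.

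Counts past 2-fold among genes of the CUL5 ligase with its SOCS-box adaptors, and among listed RAB40 partners, were near the background of 1.06% higher and 0.474% lower. Of 31 genes of the CUL5 ligase and its SOCS-box adaptors, 24 were kept and none was 2-fold different, with a median of 0.10. Cul5, the scaffold of the ligase, had 1949 and 1925 reads (0.18, 0.09 to 0.28), and the adaptor subunit Eloc had 1384 and 825 (-0.54, -0.67 to -0.42). Elob (227 and 218 reads) and Rnf7, the RING subunit (307 and 290), stood at 0.14 and 0.12. The adaptors with the most reads were Wsb1 at 0.01 and Socs7 at -0.06. All 10 genes listed as Rap2 GTPases, their kinases and other RAB40 partners were kept, with a median of -0.05. Rap2c, a Ras-related GTPase, was the lowest at just under 2-fold, with 945 and 413 reads (-0.99, -1.16 to -0.82), while its relatives Rap2a (-0.15) and Rap2b (0.28) differed less. Tnik and Map4k4, kinases that bind Rap2, had the most reads and stood at -0.18 and -0.23.

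Of 54 other ankyrin repeat genes 34 were kept, with a median of -0.03. Among the 34, Ankrd34c alone was at least 2-fold higher, beside 1.06% of all kept genes, with 193 and 501 reads (1.57, 1.34 to 1.83). Its paralogs Ankrd34a, with 387 and 604 reads (0.84, 0.66 to 1.03), and Ankrd34b, with 58 and 106 reads and not kept (1.06, 0.60 to 1.56), lay in the same direction; both were picked after their values were seen. Ank3 and Ank2, the ankyrins that anchor membrane proteins in axons, had the most reads and stood at -0.28 and -0.10.

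Most other hair cell genes were not kept. Of 29 genes of stereocilia and hair cells 5 were kept. Beside Loxhd1 these were Myo6 at 0.21 and Pcdh15 at 0.12, Whrn at -0.11, and Triobp, an actin-bundling protein, which was over 2-fold lower with 703 and 271 reads (-1.17, -1.38 to -0.97). The transcription factors that define hair cells had few reads, with 3 and 1 for Atoh1, 0 and 1 for Gfi1, and 9 and 15 for Pou4f3. Per length Pou4f3 stood at 0.309 and 0.592 RPKM, beside 0.295 for Sowahb in siCtl. Among those not kept, the intervals of 4 lay above 0. These were Tmc1, a channel subunit, with 8 and 26 reads (1.79, 0.72 to 3.26), and Otof with 41 and 75 (1.06, 0.51 to 1.66). Cdh23 had 26 and 46 reads (interval 0.30 to 1.78) and Adgrv1 119 and 146 (0.50, 0.14 to 0.86). All 4 were picked by their intervals. The share of such intervals over all genes not kept was not computed, so this count has no background. Of 18 genes with a PLAT domain 7 were kept, and beside Loxhd1 Aloxe3, an epidermal lipoxygenase, was at least 2-fold higher (1.06% of all kept genes were), with 170 and 321 reads (1.12, 0.85 to 1.40). The other 5 lay between -0.26 and 0.08, among them Dennd5b with 4160 and 3135 reads (-0.21) and Pkd1, polycystin 1, with 3744 and 2722 (-0.26).

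**Figure D4:**
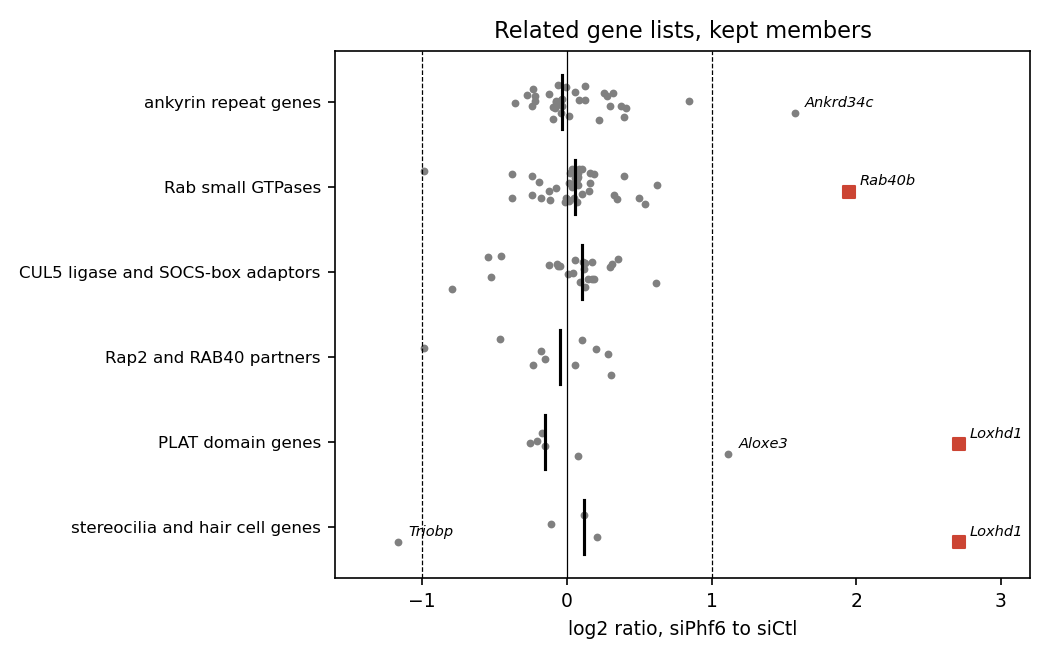
Log2 ratio of siPhf6 to siCtl (horizontal) for kept genes of 6 related lists (rows); points are genes, black bars list medians, dashed lines 2-fold, and red squares Rab40b and Loxhd1, the latter in both of its lists. Outside these squares the genes past 2-fold are Ankrd34c at 1.57, Aloxe3 at 1.12 and Triobp at -1.17.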

How the data were processed

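The deposited values are whole read counts, 1 table per library, made by the authors with HTSeq against the M9 release of GENCODE. Alignment was by HISAT2 (mm10), with duplicates taken out through samtools. For mRNA-seq no version of these tools is stated, and the submitters' processing notes name deepTools 3.5.1. The TruSeq RNA v2 kit does not mark strand. Reads in no gene (25.3% in siCtl, 24.1% in siPhf6) and those assigned to several (1.99% and 2.04%) were left out of library totals.

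Log2 ratios set siPhf6 over siCtl after adding 1 read per gene and dividing by each library's gene reads. The filter of 150 reads in either library is that of the study's methods. With 1 library per group no model of spread could be fitted and no test of the conditions was made; a 2-fold limit was used. Intervals are exact at 95% (Clopper-Pearson, Poisson). The code was tested on simulated counts. Symbols, positions and exonic lengths were looked up in GENCODE M21 (GRCm38, equal to mm10) through unversioned gene IDs (10114 of 10130 kept genes matched). Promoters came from RefSeq. Python 3.11.15, scipy 1.17.1, edgeR 4.0.16 and DESeq2 1.42.0 were used, the last pair for scaling factors alone.

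The members and lists were chosen with earlier results of these data known. Genes named are the 6 members, kept genes at or above Rab40b and the 3 below it, the 2 kept genes nearest to each increase in ratio, the 2 nearest neighbours on each side, Phf6, and in each list the members past 2-fold (at most 4) and the 2 with the most reads; others were named after their values were seen. The Rab list was fixed by a symbol pattern that took 69 genes, from which 10 regulators of Rab proteins were dropped by symbol. Marker lists of further cell types are given under the other observations.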

Additional observations from a re-analysis of the deposited data

How the results depend on the processing

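The log2 ratios of the 6 genes were recomputed under TMM scaling, DESeq2 size factors, and totals without mitochondrial and the 50 most abundant genes. Other settings were 0.5 or 5 reads added, and a length trend subtracted. All values stayed inside their counting intervals and none changed sign. A change of scaling shifts every gene of these 2 libraries by the same amount, so it cannot test a single gene. The intervals of Sowaha (-0.91 to 2.84) and Rab40c (-0.06 to 0.21) included 0, so their direction stays undetermined. The log2 ratios ranged from 3.30 to 3.65 for Sowahb, 2.63 to 2.74 for Loxhd1, 1.89 to 1.96 for Rab40b, 0.58 to 0.83 for Sowaha, 0.26 to 0.31 for Sowahc and 0.02 to 0.07 for Rab40c. The background counts moved with the filter: with genes of at least 10 reads, 631 were 2-fold higher and 352 lower, and with at least 1 read, 3784 and 1511. The last pair is uneven partly by construction: with 1 read added, the 1734 genes at 0 and 1 reads (siCtl first) stand at 1.20 and count as higher, while the 1828 at 1 and 0 stand at -0.80 and do not count as lower. An exact binomial test of the reads (FDR under 0.01, log2 ratio over 0.25), which compares the libraries and not the conditions, gave 1359 higher and 1261 lower. With genes of at least 10 reads Sowahb ranked 4th, Loxhd1 14th and Rab40b 89th, and with 5 reads added Loxhd1 ranked 3rd. No paired analysis was possible because each group has 1 library, and none could be left out for the same reason.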

Other observations

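Marker lists of other cell types were summed in RPM for comparison with Sowahb, Loxhd1 and Rab40b, siCtl first. Intermediate progenitor markers (1 of 4 kept) summed to 87.9 and 122.6, nearly all of it Btg2 (83.2 and 118.6), while Neurog2 had 48 and 22 reads (log2 ratio -0.89, -1.72 to -0.17) and Eomes 9 and 20 (1.27, 0.15 to 2.67). Markers of dividing cells summed to 24.4 and 54.6. The oligodendrocyte list (3 of 5 kept) summed to 61.9 and 81.4, and its members went apart: Olig1 had 239 and 361 reads (0.80), Olig2, kept through siPhf6 alone, 79 and 153 (1.15), Mbp 369 and 258 (-0.31, -0.55 to -0.08) and Sox10 6 and 6. GABAergic neuron markers (5 of 6 kept) summed to 301.8 and 302.0, although Lhx6 stood at -0.80 (-1.09 to -0.52) and Dlx1 at -0.58 (-0.81 to -0.36), against 0.19 for Gad2 and 0.24 for Sst. Markers of astrocytes (2 of 4) summed to 47.7 and 52.4, and those of vessel cells (2 of 5) to 54.8 and 49.1. Radial glia markers summed to 349.7 and 482.9. Microglia markers summed to 4.11 and 5.02, choroid plexus markers to 0.165 and 0.0947, and erythroid markers to 0.576 and 0.0947, none of them kept. With the 10 regulators left in, the Rab pattern gave 50 kept of 69 genes, and Rab40b was again the only one past 2-fold.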
